A study of Rattus norvegicus with 33 samples.

Results

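The genes described here were 10 genes of skeletal muscle contraction and its energy and oxygen supply, chosen by name: the α-actin Acta1, the creatine kinase Ckm, the troponins Tnnc1, Tnnc2, Tnnt2, Tnnt3 and Tnni2, the myosins Myh7 and Myl1, and the myoglobin Mb. Each was read by 1 probe whose platform symbol is the gene's name, so that the set is 10 of the 22523 probes on the array. Of the 10 probes, 8 were among the 12029 that passed the detection filter, a detection p-value under 0.05 on 75% or more of the arrays in 1 or more of the groups. Tnni2 and Mb did not pass and were not tested. Myh7 passed only through the rhBMP-2/ACS group at 7 days post surgery (dps), and Tnnt3 only through the rhBMP-2/ACS and vehicle/ACS groups at 7 dps.

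RNA came from the dorsal root ganglia (DRG) of female Sasco/Sprague-Dawley rats, 13 weeks old, that all had lumbar surgery in which the back muscle over the transverse processes was opened. Rats received an absorbable collagen sponge (ACS) soaked with rhBMP-2, a recombinant human form of the bone-inducing growth factor BMP-2 (rhBMP-2/ACS), a sponge soaked with vehicle (vehicle/ACS), or surgery alone (no sponge). Sponges were placed on 1 side only. There were 4 arrays per treatment at 1 dps, 3 at 3 dps and 4 at 7 dps, 33 in all, and from 10142 to 11674 probes were detected per array. The study describes L4 and L5 ganglia of 1 rat on each array, apart from the no sponge arrays at 7 dps, which it does not describe, and states that the best RNA samples were sent for the arrays. The arrays of the 3 time points carry separate label series, so that time and array series cannot be told apart.

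Striated muscle contracts when calcium binds troponin C, which shifts troponin I, troponin T and tropomyosin on the actin thin filament and lets myosin heads bind. Fast fibres use their own isoforms of troponin and myosin light chain, slow fibres share theirs in large part with the heart, and α-actin and creatine kinase serve both. Ganglia hold neurons, glia, vessels and connective tissue but no striated fibres, while paraspinal muscle lies close to them.

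The set did not behave as 1 block. Acta1, Tnnc1 and Myl1 were detected on 33 of 33 arrays and Ckm on 32, while Tnnc2 and Tnnt2 were detected on 28, Tnnt3 on 17, Myh7 on 8, Tnni2 on 7 and Mb on 1. For 8 of the 10 genes the highest of the 33 values fell on the same pair of arrays, replicate 3 of rhBMP-2/ACS at 1 dps or replicate 3 of rhBMP-2/ACS at 7 dps, and for 5 genes (Acta1, Ckm, Tnnc2, Myl1 and Tnnt3) those arrays held both top places. The exceptions were Tnnc1 and Tnnt2, whose highest values were on a vehicle/ACS array (7.59) and a no sponge array (7.03) at 7 dps. The pair of arrays was singled out after these values were seen.

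**Figure D1:**
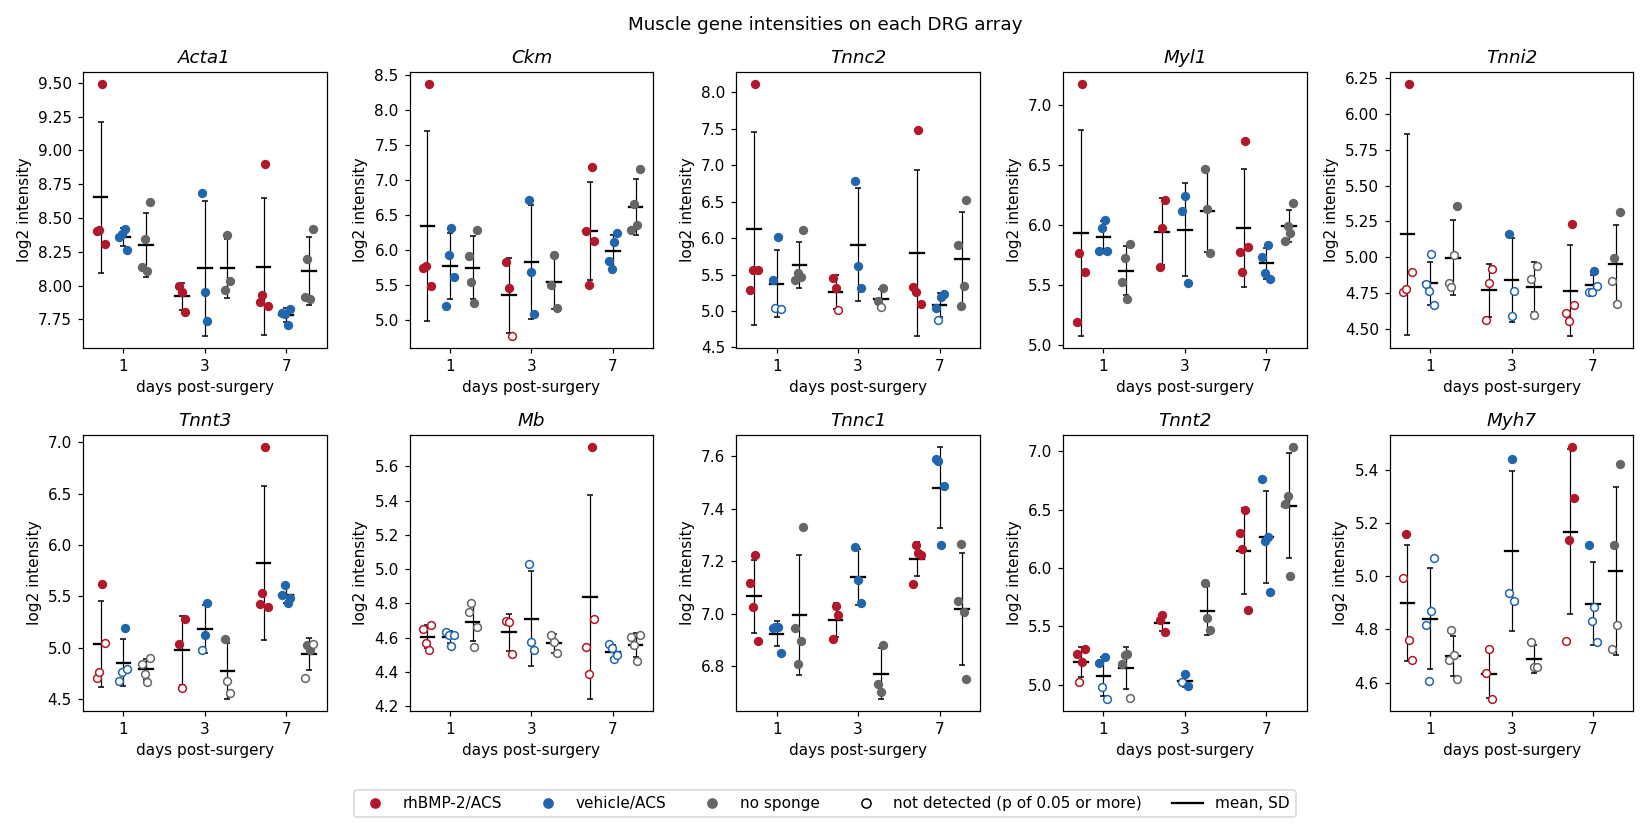
Log2 intensity (vertical axes, separate scales) of the 10 muscle genes on each of 33 arrays at 1, 3 and 7 days post-surgery, with rhBMP-2/ACS, vehicle/ACS and no sponge from left to right at each time, group means and SD as bars, and open points where the detection p-value was 0.05 or more. A single rhBMP-2/ACS array at 1 dps reaches 9.49 for Acta1, 8.36 for Ckm and 8.11 for Tnnc2, a single rhBMP-2/ACS array at 7 dps reaches 8.90, 7.19 and 7.49 for the same genes, and Tnnt2 sits highest at 7 dps in all treatments.

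Promoters are shown for 3 genes that peaked together on those arrays (Acta1, Ckm and Tnnc2) and for Tnnt2, which did not. Each is the 250 bases before the annotated start in RefSeq on build GRCr8, for Acta1 chr19:68784195-68784444 on the minus strand, for Ckm chr1:88189211-88189460 on the plus strand, for Tnnc2 chr3:173935340-173935589 on the minus strand and for the first entry of Tnnt2 chr13:49818873-49819122 on the plus strand. Capitals mark matches on either strand to CAGCTG (an E-box bound by myogenic factors), CATTCC (the MCAT element), TATAAA and the CArG box.
Acta1: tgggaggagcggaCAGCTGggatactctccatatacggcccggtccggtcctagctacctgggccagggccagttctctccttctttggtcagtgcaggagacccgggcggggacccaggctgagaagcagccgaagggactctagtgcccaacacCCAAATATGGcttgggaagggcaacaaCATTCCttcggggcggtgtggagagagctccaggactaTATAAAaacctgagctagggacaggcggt
Ckm: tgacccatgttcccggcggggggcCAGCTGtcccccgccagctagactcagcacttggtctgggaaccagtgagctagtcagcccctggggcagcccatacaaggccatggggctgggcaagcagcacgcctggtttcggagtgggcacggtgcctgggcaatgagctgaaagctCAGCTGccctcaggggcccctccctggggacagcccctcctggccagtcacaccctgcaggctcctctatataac
Tnnc2: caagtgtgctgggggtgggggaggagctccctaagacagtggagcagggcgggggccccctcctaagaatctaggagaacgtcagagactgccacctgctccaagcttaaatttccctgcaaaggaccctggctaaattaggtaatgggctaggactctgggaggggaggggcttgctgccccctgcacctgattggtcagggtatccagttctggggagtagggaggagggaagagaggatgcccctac
Tnnt2: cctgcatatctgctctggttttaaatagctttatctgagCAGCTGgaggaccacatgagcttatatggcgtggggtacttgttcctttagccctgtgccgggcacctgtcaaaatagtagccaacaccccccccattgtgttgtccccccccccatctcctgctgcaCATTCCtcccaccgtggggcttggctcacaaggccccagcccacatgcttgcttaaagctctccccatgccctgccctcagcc
Sequences were at hand for 8 of the 10 genes, and Tnnc1 and Tnnt3 are named only. Acta1 held a CAGCTG 237 bases before the start, a CArG box at 94, a CATTCC at 67 and a TATAAA at 29. Ckm held CAGCTG at 226 and 75 bases before the start, and Tnnt2 held CAGCTG at 211 and CATTCC at 83. Tnnc2 held no match to the 4 marked motifs but 3 matches to the general E-box CANNTG. Of 33465 promoters of the same length, 12% held CAGCTG, 12.1% CATTCC, 12.9% TATAAA, 1.5% a CArG box, 0.523% the MEF2 site that a Myl1 promoter held 176 bases before its start, and 65.5% a CANNTG, which each CAGCTG also is. These matches are letters in the sequence, not measured binding.

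Among the 4 rhBMP-2/ACS arrays at 1 dps, Ckm had 5.74, 5.77, 8.36 and 5.48 on the log2 intensity scale, against 5.20, 5.93, 6.31 and 5.61 on vehicle/ACS arrays. Tnnc2, the calcium-binding troponin C of fast fibres, had 5.29, 5.56, 8.11 and 5.57 on rhBMP-2/ACS arrays, against 5.42, 5.04, 6.01 and 5.03 on vehicle/ACS arrays, where it was detected on 2 of 4. Acta1, the thin filament actin of skeletal muscle, had 8.40, 8.41, 9.49 and 8.31 on rhBMP-2/ACS arrays, against 8.36, 8.38, 8.42 and 8.27 on vehicle/ACS arrays. In each gene replicate 3 was alone in standing above every vehicle/ACS array by a wide margin, and the other 3 rhBMP-2/ACS arrays lay within the vehicle/ACS range. Myl1, a light chain of fast myosin, had 5.19, 5.77, 7.17 and 5.60 on rhBMP-2/ACS arrays, against 5.78, 5.98, 6.04 and 5.78 on vehicle/ACS arrays, so that its other 3 rhBMP-2/ACS arrays lay below every vehicle/ACS array.

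The excess of an array was taken as its value minus the median of its group's other arrays. On replicate 3 of rhBMP-2/ACS at 1 dps the excess was 2.61 for Ckm, 2.54 for Tnnc2, 1.57 for Myl1 and 1.09 for Acta1. Tnni2, the inhibitory troponin of fast fibres, was detected there at 6.21 and on none of the group's other arrays (4.76 to 4.90), at least 2.12-fold higher. Tnnt3, the troponin T of fast fibres, was likewise detected only on this array of the group, at 5.62 against 4.70 to 5.04, at least 1.41-fold higher. For such bounds, each array that did not detect the gene is set at its lowest detected signal or at its own value, whichever is higher. Excesses were 0.20 for Tnnc1 and -0.07 for Tnnt2, and neither Myh7 nor Mb was detected on this array. Of the 8 genes that passed the filter, 4 exceeded the other arrays by more than 1 log2 unit, where 0.657% of all probes did.

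Replicate 3 of rhBMP-2/ACS at 7 dps had a like but not identical profile. Tnnc2 had 5.33, 5.26, 7.49 and 5.09 on rhBMP-2/ACS arrays, against 5.04, 4.88, 5.19 and 5.24 on vehicle/ACS arrays. The array's excess was 2.23 for Tnnc2, 1.52 for Tnnt3, 1.06 for Ckm, 1.02 for Acta1 and 0.93 for Myl1. It was the only one of 33 arrays on which Mb, the oxygen store of red fibres, was detected, at 5.71 against 4.39 to 4.71 on the group's other arrays, at least 1.72-fold higher. Tnni2 was detected at 5.24 and on none of the group's other arrays (4.56 to 4.67), at least 1.24-fold higher. Excesses were 0.35 for Myh7, 0.34 for Tnnt2 and 0.006 for Tnnc1. Again 4 of the 8 genes exceeded 1 log2 unit, where 0.499% of all probes did.

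**Figure D2:**
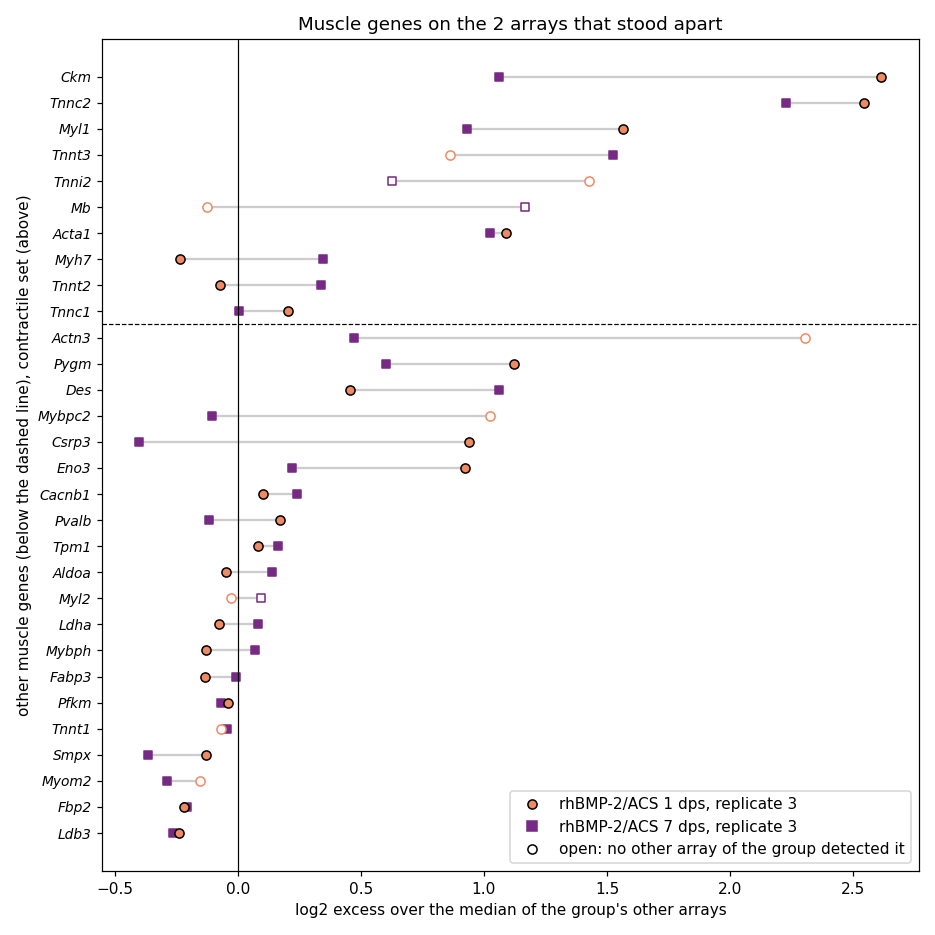
Log2 excess over the median of the group's other arrays (horizontal axis) of the 10 contractile genes, above the dashed line, and of 20 other muscle genes below it, on replicate 3 of rhBMP-2/ACS at 1 dps (circles) and at 7 dps (squares), with open symbols where no other array of the group detected the gene and the plotted value is no measured fold. Ckm and Tnnc2 lie farthest right at 1 dps with 2.61 and 2.54, Tnnc2 at 7 dps with 2.23, and Tnnc1 lies near 0 on both arrays.

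Averaged over the 8 genes, with values not above background included, the excess was 1.07 on the 1 dps array and 0.93 on the 7 dps array. The next arrays were replicate 4 of no sponge at 7 dps with 0.45, replicate 1 of vehicle/ACS at 3 dps with 0.42 and replicate 3 of vehicle/ACS at 1 dps with 0.34. The smaller single-array elevations thus fell on no sponge and vehicle/ACS arrays. Replicate 1 of vehicle/ACS at 3 dps had 6.71 for Ckm and 6.79 for Tnnc2, against 5.68 and 5.09 for Ckm and 5.62 and 5.32 for Tnnc2 on the group's other arrays. Replicate 4 of no sponge at 7 dps had 6.52 for Tnnc2, against 5.90, 5.06 and 5.34. The lowest array was replicate 3 of vehicle/ACS at 3 dps, with a mean excess of -0.42.

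**Figure D3:**
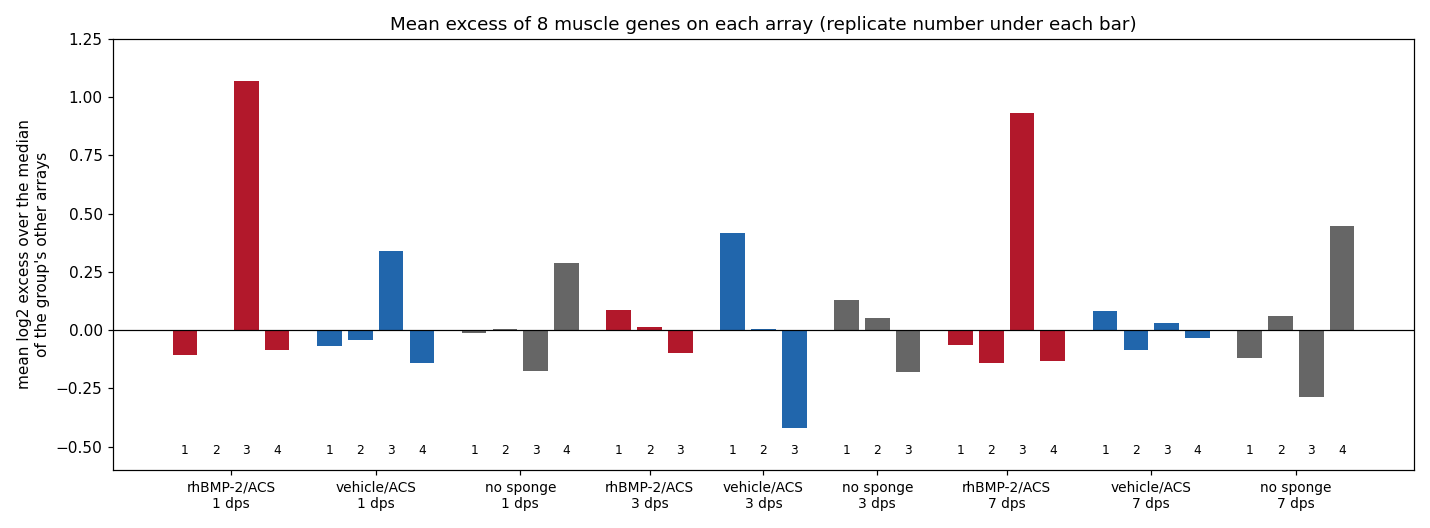
Mean log2 excess of the 8 filtered muscle genes over the median of the group's other arrays (vertical axis) for each of 33 arrays, with replicate numbers under the bars and rhBMP-2/ACS, vehicle/ACS and no sponge from left to right at 1, 3 and 7 dps. Replicate 3 of rhBMP-2/ACS stands at 1.07 at 1 dps and at 0.93 at 7 dps, and the next highest array is at 0.45.

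Other muscle genes followed in part. Of 20 genes of sarcomere structure, calcium handling and energy supply that passed the filter, 3 exceeded 1 log2 unit on the 1 dps array and 1 on the 7 dps array. Actn3, the α-actinin of fast fibres, was detected on the 1 dps array at 7.35 and on none of the group's other arrays (4.90 to 5.09), at least 4.70-fold higher, and had an excess of 0.47 at 7 dps. Mybpc2, a myosin binding protein of fast fibres, was likewise at least 1.90-fold higher at 1 dps and had -0.11 at 7 dps. Pygm, muscle glycogen phosphorylase, had 1.12 at 1 dps and 0.60 at 7 dps, and Des, the intermediate filament protein of muscle and pericytes, had 0.46 and 1.06. Most of the 20 lay near 0, among them Tpm1 (0.08 and 0.16), Aldoa (-0.05 and 0.14) and Ldha (-0.08 and 0.08). These were bright on the other rhBMP-2/ACS arrays at 1 dps, with up to 10.23, 12.38 and 11.64, against up to 5.77 for Ckm. Dimmer genes differed on the 1 dps array. Ldb3 (5.61) and Smpx (6.95) had excesses of -0.24 and -0.13, while Eno3 (6.06) had 0.92. The reason for these differences was not tested. Myl2 and Tnnt1 were not detected on either array. The median excess of the 11 sarcomere genes was -0.03 at 1 dps and -0.04 at 7 dps, against -0.01 for all probes on both arrays. Their mean level, which single genes can move, was 6.56 on the 1 dps array, the highest of the 33 arrays, against 6.17 to 6.21. On the 7 dps array it was 6.43, against 6.38 to 6.45. The 4 myogenic genes averaged 5.55, against 5.10 to 5.34, and 5.75, against 5.17 to 5.62, the latter the highest of the 33 arrays.

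Genes outside muscle also stood high on these arrays. The leading genes at 1 dps included Spock2 (3.64), Hmgn1 (3.23), Slpi (3.03) and Abra (2.37), and at 7 dps Ggcx (3.80), Hmgn1 (2.36), Rnase3 (2.41) and Col3a1 (2.14). Mean levels of 8 fibroblast and connective tissue genes were 9.22 on the 1 dps array, against 8.69 to 8.88 on the group's other arrays, and 9.83 on the 7 dps array, against 9.29 to 9.51. The 3 erythrocyte genes averaged 8.14 on the 7 dps array, the highest of the 33 arrays, against 7.51 to 7.80, but 7.05 on the 1 dps array, against 6.96 to 7.23. The 6 adipocyte genes averaged 6.22 on the 7 dps array, against 5.83 to 5.96, and the 3 smooth muscle genes 8.17, against 7.60 to 7.67. The 8 sensory neuron genes averaged 11.05 on the 1 dps array, against 11.12 to 11.13 on the group's other arrays, and 11.03 on the 7 dps array, against 11.08 to 11.14, below every other array of the group in both cases. The part of any of these tissues in the muscle gene values was not tested, and in bulk RNA more cells of a type and more RNA per cell cannot be told apart.

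Within groups, Acta1, Ckm, Tnnc2 and, less closely, Myl1 also varied together on the other arrays. After subtraction of group means, the Pearson correlation over 33 arrays was 0.88 between Acta1 and Ckm, 0.89 between Acta1 and Tnnc2 and 0.84 between Ckm and Tnnc2. Without the 2 arrays these were 0.80, 0.76 and 0.71 over 31 arrays. Myl1 correlated with the same genes at 0.76 to 0.78, and at 0.52 to 0.54 without the 2 arrays. Tnnt3 correlated with Acta1 at 0.58, with Ckm at 0.49 and with Tnnc2 at 0.64, and without the 2 arrays at 0.15, 0.16 and 0.26. Tnnc1, Tnnt2 and Myh7 correlated with Acta1, Ckm and Tnnc2 at 0.06 to 0.33, and at 0.03 to 0.28 without the 2 arrays. These values are descriptions over arrays that share normalization and labelling.

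**Figure D4:**
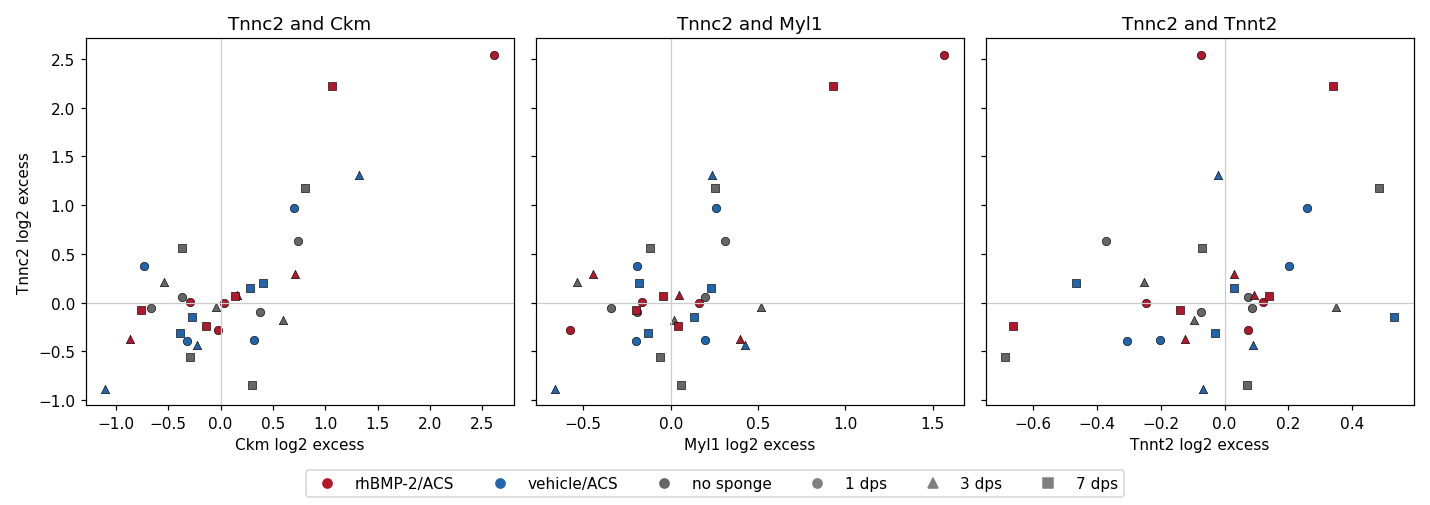
Log2 excess over the median of the group's other arrays for Tnnc2 (vertical axis) against Ckm, Myl1 and Tnnt2 (horizontal axes), 1 point per array, coloured by treatment and shaped by time. Tnnc2 and Ckm vary together on arrays of all 3 treatments, with replicate 3 of rhBMP-2/ACS at 1 dps (2.54 and 2.61) at the upper right, while Tnnt2 shows no such slope.

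The genes whose levels over 33 arrays were most like the mean of the 8 contractile genes were Actn3 (Pearson r = 0.78), Car3 (0.71) and Pygm (0.68), among 8683 genes with a symbol. With group means subtracted they were at 0.84, 0.77 and 0.66. Adsl and Prex2 followed over all arrays with 0.67 and 0.63.

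The first question of the design was whether rhBMP-2 on the sponge altered these genes. At 1 dps none of the 8 tested genes passed the threshold for rhBMP-2/ACS versus vehicle/ACS, an adjusted p under 0.05 in limma's moderated test over 12029 probes, as 0% of all probes did, and no gene had an unadjusted p under 0.05. All 8 log2 differences were positive, with a median of 0.16 against -0.001 for all probes. Without the 2 arrays 4 of 7 were positive, with a median of 0.017. The largest were 0.75 for Tnnc2 (95% interval -0.19 to 1.70) and 0.58 for Ckm (-0.31 to 1.46), both with limma adjusted p = 0.999. Without the 2 arrays they were 0.09 for Tnnc2 and -0.10 for Ckm, and Myl1 differed by -0.37 without them and by 0.04 with them. Groups did not overlap for 0 of 8 genes at 1 dps, where 2.78% of all probes did not for rhBMP-2/ACS versus vehicle/ACS, 4.19% for rhBMP-2/ACS versus no sponge and 2.61% for vehicle/ACS versus no sponge.

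At 7 dps rhBMP-2/ACS versus vehicle/ACS again gave 0 of 8, as 0% of all probes. Tnnc2 differed by 0.71 and Acta1 by 0.36, which became 0.14 and 0.10 without the 2 arrays. Acta1 had 7.88, 7.93, 8.90 and 7.85 on rhBMP-2/ACS arrays, against 7.80, 7.79, 7.71 and 7.83 on vehicle/ACS arrays. The 4 rhBMP-2/ACS values thus lay above the 4 vehicle/ACS values, replicate 3 by more than 1 log2 unit and the others by little. Tnnc1 ran the other way by -0.27 (95% interval -0.49 to -0.05, limma adjusted p = 0.700), with 7.11, 7.26, 7.23 and 7.22 on rhBMP-2/ACS arrays, against 7.59, 7.58, 7.26 and 7.49 on vehicle/ACS arrays, where the highest rhBMP-2/ACS array lay just under the lowest vehicle/ACS array. Groups did not overlap for 2 of the 8 genes, Acta1 and Tnnc1, where 3.35% of all probes did not.

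At 3 dps rhBMP-2/ACS versus vehicle/ACS gave 0 of 8, with 10.5% of all probes past the threshold. Myh7, the myosin heavy chain of slow fibres and heart, was not detected on any rhBMP-2/ACS array (4.64, 4.73 and 4.54). It was detected on 1 of 3 vehicle/ACS arrays (4.94, 5.44 and 4.91), so that no fold is given (limma adjusted p = 0.0800). Tnnt2 had 5.55, 5.59 and 5.45 on rhBMP-2/ACS arrays, against 5.02, 5.09 and 4.99 on vehicle/ACS arrays, a difference of 0.50 (SE 0.21, limma adjusted p = 0.132) without overlap. Groups did not overlap for 3 of 8 genes (Tnnt2, Myh7 and Tnnc1) and for 22.8% of all probes.

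Myh7 entered the tests only through its detection on rhBMP-2/ACS arrays at 7 dps, so that its calls are conditioned on that group and are not read as changes. At 7 dps Myh7 had 4.76, 5.14, 5.49 and 5.29 on rhBMP-2/ACS arrays, 3 of them detected, against 5.12, 4.83, 4.89 and 4.75 on vehicle/ACS arrays, 1 of them detected. The fitted effect of rhBMP-2/ACS versus vehicle/ACS at 7 dps minus that at 3 dps, where no rhBMP-2/ACS array detected the gene, was 0.73 (SE 0.23, limma adjusted p = 0.0462). It was the 1 gene of 8 to pass, where 6.9% of all probes did, and the call was lost on leaving out any of 10 single arrays. Those were replicate 2 of vehicle/ACS and each rhBMP-2/ACS array at 3 dps, and replicates 2, 3 and 4 of both rhBMP-2/ACS and vehicle/ACS at 7 dps. Leaving out 1 of the 3 detected rhBMP-2/ACS arrays at 7 dps also took Myh7 below the detection filter. Tnnc2 had the largest such difference, 1.36, with limma adjusted p = 0.262. For the same effect at 3 dps minus 1 dps 0 of 8 passed, where 1.16% of all probes did, and for the vehicle/ACS effect relative to no sponge 0 of 8 passed at 3 dps minus 1 dps (0% of all probes) and 0 of 8 at 7 dps minus 3 dps (3.75%).

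The second question was what the vehicle sponge changed relative to surgery alone. At 7 dps Tnnc1, the troponin C of slow fibres and heart, had 7.59, 7.58, 7.26 and 7.49 on vehicle/ACS arrays, against 7.05, 7.27, 7.01 and 6.75 on no sponge arrays. Only the lowest vehicle/ACS array fell inside the no sponge range. The difference was 0.46 on the log2 scale, a fold of 1.38 (SE 0.11, 95% interval 0.24 to 0.68, limma adjusted p = 0.00518), and it was the 1 gene of 8 past the threshold, where 10.2% of all probes passed. At 3 dps Tnnc1 had 7.25, 7.13 and 7.04 on vehicle/ACS arrays, against 6.73, 6.70 and 6.88 on no sponge arrays, a difference of 0.37 (limma adjusted p = 0.181) without overlap. The call at 7 dps held on leaving out each array in turn, with adjusted p between 0.00229 and 0.0341.

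Tnnt3 was detected on all 4 vehicle/ACS arrays at 7 dps, with 5.51, 5.61, 5.43 and 5.48, and on 2 of 4 no sponge arrays, with 4.70, 5.02, 4.98 and 5.04. The groups did not overlap, but the difference of 0.58 (SE 0.23) had limma adjusted p = 0.111, and here too vehicle/ACS at 7 dps was one of the groups through which Tnnt3 passed the filter. Acta1 differed by -0.33 (limma adjusted p = 0.371), Ckm by -0.63 (0.392) and Myl1 by -0.31 (0.494), each with the vehicle/ACS arrays below every no sponge array. These 4 of 8 genes did not overlap at 7 dps, where 17.1% of all probes did not, and the median difference over the 8 was -0.29 against -0.04 for all probes. The spread in these tests was pooled over all groups and took in the 2 high arrays. At 3 dps 0 of 8 passed, where 0.341% of all probes did, and 4 of 8 did not overlap, where 14.9% did not. Beside Tnnc1 these were Tnnt2, with 5.02, 5.09 and 4.99 on vehicle/ACS arrays against 5.87, 5.57 and 5.47 on no sponge arrays (-0.60, limma adjusted p = 0.208), Tnnc2 (0.74, 0.563) and Myh7, which was detected on 1 of 3 vehicle/ACS arrays and on 0 of 3 no sponge arrays and has no fold here. The study itself reports, by its own thresholds, strong induction of Tnnt3, Tnnc2 and Myh7 with the sponge at 3 dps. The genes were chosen with earlier results of these data known, so that the count without overlap at 3 dps is a description. At 1 dps 0 of 8 passed, as 0% of all probes did.

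Set against no sponge at 7 dps, rhBMP-2/ACS arrays passed the threshold for Tnnt3. This gene entered the tests only through its detection on all rhBMP-2/ACS and vehicle/ACS arrays at 7 dps, so that the call is conditioned on those groups and is a description. The rhBMP-2/ACS arrays had 5.43, 5.53, 6.95 and 5.40, against 4.70, 5.02, 4.98 and 5.04, without overlap, a difference of 0.89 (SE 0.23, 95% interval 0.42 to 1.36, limma adjusted p = 0.0240). It was the 1 gene of 8 past the threshold, where 3.63% of all probes passed, and the 1 gene without overlap, where 12.3% of all probes had none. Without replicate 3 the difference was 0.52 with limma adjusted p = 0.144, and leaving out replicate 1 or replicate 3 of no sponge gave 0.0896 and 0.0518. Without both high arrays it was 0.52 with 0.0751. The comparison shares its no sponge arrays with the one of vehicle/ACS above. At 3 dps rhBMP-2/ACS versus no sponge gave 0 of 8, where 7.55% of all probes passed and 1 gene (Tnnc1) and 22.3% of all probes did not overlap, and at 1 dps 0 of 8, as 0% of all probes.

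**Figure D5:**
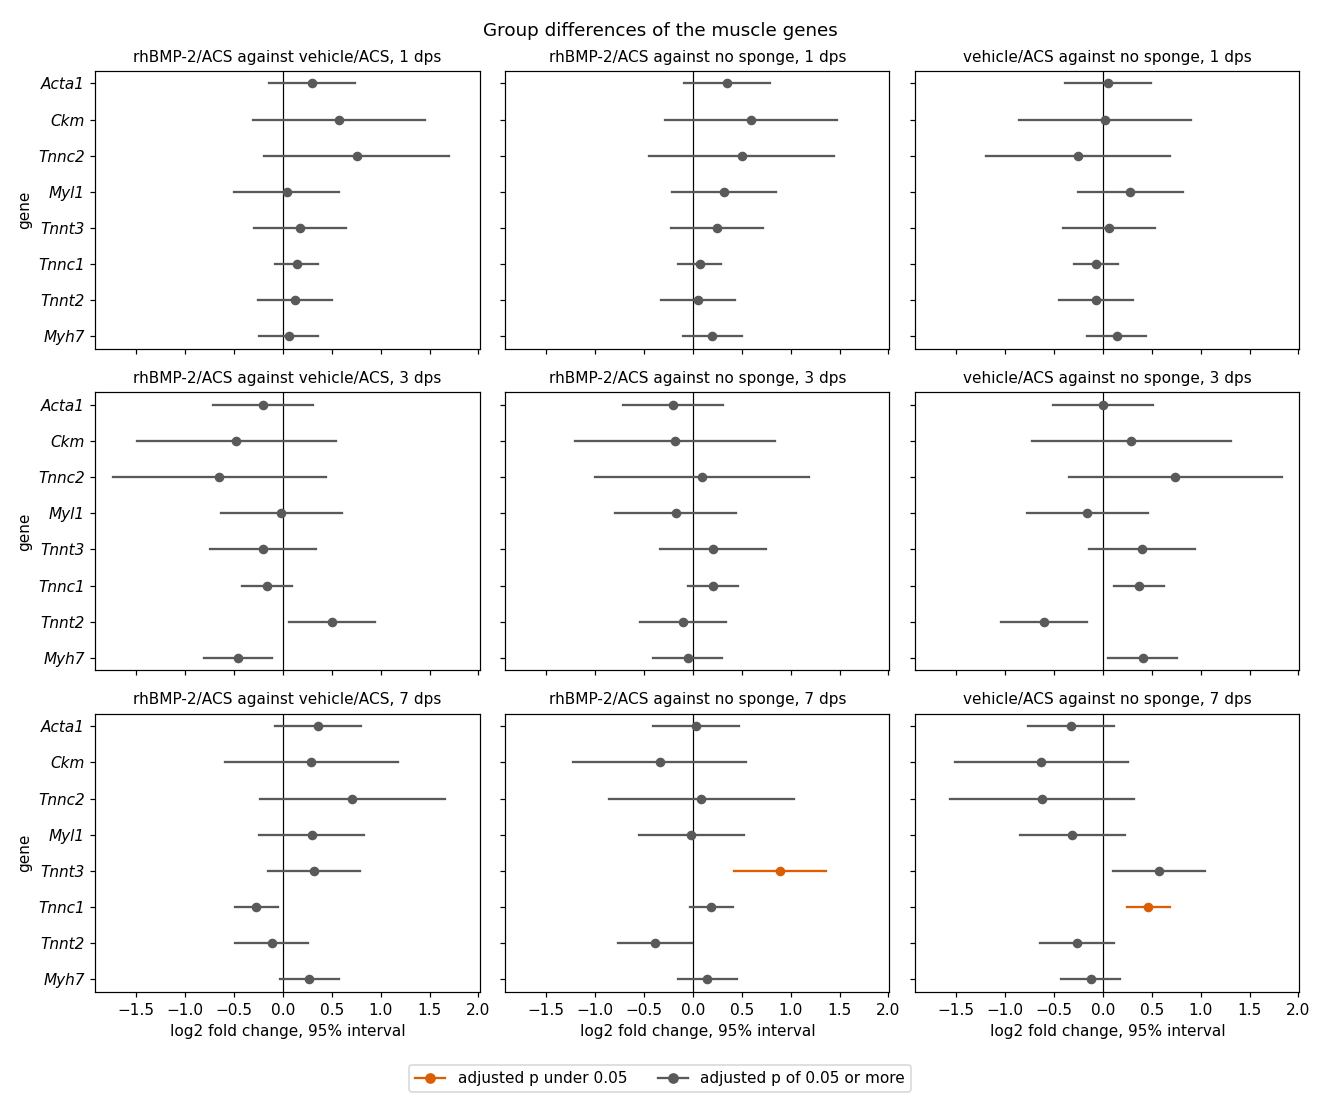
Log2 fold change of the 8 filtered muscle genes (horizontal axes) with 95% intervals for rhBMP-2/ACS versus vehicle/ACS, rhBMP-2/ACS versus no sponge and vehicle/ACS versus no sponge (columns) at 1, 3 and 7 dps (rows), orange where the adjusted p was under 0.05. Tnnt3 at 0.89 in rhBMP-2/ACS versus no sponge and Tnnc1 at 0.46 in vehicle/ACS versus no sponge, both at 7 dps, are the orange points, and the widest intervals belong to Ckm and Tnnc2.

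Tnnt2, the cardiac troponin T, was higher at 7 dps than at 3 dps in all treatments. On no sponge arrays it had 5.18, 5.25, 5.26 and 4.88 at 1 dps, 5.87, 5.57 and 5.47 at 3 dps and 6.55, 6.62, 5.93 and 7.03 at 7 dps. On vehicle/ACS arrays it had 5.18, 4.98, 5.24 and 4.88 at 1 dps, 5.02, 5.09 and 4.99 at 3 dps and 6.77, 6.24, 6.26 and 5.80 at 7 dps. On rhBMP-2/ACS arrays it had 5.26, 5.02, 5.19 and 5.31 at 1 dps, 5.55, 5.59 and 5.45 at 3 dps and 6.30, 6.16, 6.50 and 5.64 at 7 dps. Values at 7 dps lay above all values at 3 dps of the same treatment. Groups at these times did not overlap for 39.5% of all probes in rhBMP-2/ACS, 40.2% in vehicle/ACS and 34.6% in no sponge. The threshold was passed by 40.9%, 41% and 29.5% of all probes in the same order. The rise at 7 dps against 3 dps was 0.62 for rhBMP-2/ACS (SE 0.20, limma adjusted p = 0.0146), 1.23 for vehicle/ACS (SE 0.20, limma adjusted p = 1.28e-05) and 0.90 for no sponge (SE 0.20, limma adjusted p = 0.00101). For rhBMP-2/ACS the call was lost without replicate 3 at 3 dps (limma adjusted p = 0.0521) or replicate 3 at 7 dps (0.0597), and without the 2 high arrays the difference was 0.50 with 0.0646.

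In the order of the 9 group means, neighbouring groups differed by more than the within-group SD at 2 of 8 steps for Tnnt2, between rhBMP-2/ACS at 1 and 3 dps and between no sponge at 3 dps and rhBMP-2/ACS at 7 dps. For Tnnc1 this held at 2 of 8 steps too, at the lowest, between no sponge at 3 dps (6.77 ± 0.10, SD, n = 3) and vehicle/ACS at 1 dps (6.92 ± 0.05, SD, n = 4), and at the highest, between rhBMP-2/ACS at 7 dps (7.21 ± 0.06, SD, n = 4) and vehicle/ACS at 7 dps (7.48 ± 0.15, SD, n = 4). For the other 8 genes it held at 0 of 8 steps. This SD is pooled over the 9 groups and takes in the 2 high arrays. For Acta1 it was 0.34, against 0.05 within vehicle/ACS at 7 dps, so that a smaller gap does not show groups to be alike. Within groups the SD was 0.73 for Tnnc2 and 0.68 for Ckm, 0.40 for Myl1, 0.35 for Tnnt3 and 0.34 for Acta1.

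Other changes with time were few beside a large background. On rhBMP-2/ACS arrays at 7 dps against 3 dps 3 genes passed the threshold, all higher, where 40.9% of all probes passed. Beside Tnnt2 these were Tnnt3 with 0.85 (limma adjusted p = 0.00698, 0.48 with 0.0187 without the 2 high arrays, and 0.67 with 0.0628 without replicate 2 at 3 dps) and Myh7 (limma adjusted p = 0.00869), for which no fold is given, since no array detected it at 3 dps. Both entered the tests through their detection at 7 dps, so that neither is read as a rise. Myh7 did not pass the detection filter without replicate 2, 3 or 4 at 7 dps. On vehicle/ACS arrays Tnnc1 rose by 0.34 (limma adjusted p = 0.0196) beside Tnnt2, where 41% of all probes passed, and this was lost without replicate 2 or 3 at 3 dps or replicate 1 or 2 at 7 dps, with adjusted p up to 0.0883. On no sponge arrays Tnnt2 was the 1 gene of 8, where 29.5% passed, and Ckm had 6.28, 6.65, 6.35 and 7.15 at 7 dps, against 5.50, 5.93 and 5.17 at 3 dps (1.07, limma adjusted p = 0.0814).

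At 3 dps against 1 dps Acta1 fell by 0.73 on rhBMP-2/ACS arrays (SE 0.23, limma adjusted p = 0.0160), the 1 gene of 8, where 33.2% of all probes passed. It had 8.00, 7.95 and 7.81 at 3 dps, against 8.40, 8.41, 9.49 and 8.31 at 1 dps, without overlap. The same groups did not overlap for 35.8% of all probes. Without replicate 3 at 1 dps the fall was -0.45 with limma adjusted p = 0.0967, without replicate 3 at 3 dps -0.68 with 0.0602, and without both high arrays -0.45 with 0.0347. On vehicle/ACS arrays 0 of 8 passed, where 36.7% of all probes did, and on no sponge arrays 0 of 8, where 22.2% did.

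Beyond the 10 genes, a pair of genes from the other muscle lists was detected at 7 dps only where a sponge had been placed. Csrp3, the muscle LIM protein, had 7.77, 8.04, 7.41 and 7.81 on rhBMP-2/ACS arrays and 7.97, 6.88, 7.09 and 7.64 on vehicle/ACS arrays at 7 dps, against 4.38, 4.42, 4.65 and 4.49 on no sponge arrays, none of which detected it. It was thus at least 6.79-fold higher on rhBMP-2/ACS arrays (limma adjusted p = 1.79e-05) and at least 5.28-fold higher on vehicle/ACS arrays (limma adjusted p = 2.96e-05). Csrp3 passed the detection filter only through groups with a sponge, these among them, and was detailed after its values were seen. Its calls are thus a description. Ankrd1, an ankyrin repeat protein of stressed muscle, was at least 2.15-fold and 1.77-fold higher in the same comparisons (limma adjusted p = 0.00390 and 0.00878). At earlier times no sponge arrays did detect them, Csrp3 on 2 of 4 at 1 dps and 1 of 3 at 3 dps, and Ankrd1 on 4 of 4 and 2 of 3. On replicate 3 of rhBMP-2/ACS at 7 dps, where Tnnc2 and Ckm were high, Csrp3 was the lowest of its group (excess -0.40). The cells that the signal of either gene came from were not tested. For rhBMP-2/ACS versus no sponge at 7 dps Ckm differed by -0.34 (limma adjusted p = 0.734) and Acta1 by 0.03 (0.964).

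The shares of all probes past the threshold in either direction were 10.2% in vehicle/ACS versus no sponge and 3.63% in rhBMP-2/ACS versus no sponge at 7 dps, and 10.5% in rhBMP-2/ACS versus vehicle/ACS and 7.55% in rhBMP-2/ACS versus no sponge at 3 dps. Of the 11 sarcomere genes that passed the filter, 1 was higher and 1 lower in vehicle/ACS versus no sponge at 7 dps (Csrp3, and Myom2 by -0.68), and 1 was higher in rhBMP-2/ACS versus no sponge. In rhBMP-2/ACS versus vehicle/ACS at 3 dps 2 were higher (Des by 0.85 and Myl2 by a fitted 0.40) and 1 lower (Ldb3 by -0.47). Myl2 lay near background, detected on no rhBMP-2/ACS array at 1 or 7 dps (4.52 to 5.06), so that its value is not read as a fold. Des was also higher in rhBMP-2/ACS versus no sponge at 3 dps, by 1.19. Of the 7 genes of energy supply, 0 were higher and 2 lower in vehicle/ACS versus no sponge at 7 dps, the fatty acid binding protein Fabp3 by -0.59 and the phosphofructokinase Pfkm by -0.30, and 0 and 1 in rhBMP-2/ACS versus no sponge (Fabp3). Of the 4 myogenic genes 1 was higher in each (Ankrd1), and of the 2 calcium handling genes 0 passed in either. Of the 3 cardiac muscle genes (Nppa, Nppb and Ryr2) 0 passed in either.

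Some markers of other tissues also passed the threshold with the sponge at 7 dps. Of 8 fibroblast and connective tissue genes, 6 were higher in vehicle/ACS versus no sponge, where 10.2% of all probes passed in either direction, and 2 in rhBMP-2/ACS versus no sponge, where 3.63% did. Their mean level ranged from 9.29 to 9.83 on rhBMP-2/ACS arrays and from 9.56 to 10.16 on vehicle/ACS arrays, against 8.65 to 8.88 on no sponge arrays. Tagln, of 3 smooth muscle and pericyte genes, was higher in rhBMP-2/ACS versus no sponge, and Cfd, of 6 adipocyte genes, in vehicle/ACS versus no sponge. Of 3 erythrocyte genes 0 passed in either, of 8 sensory neuron genes 2 were lower in vehicle/ACS and 1 in rhBMP-2/ACS, and of 5 glial genes 1 was lower in each. The part of these tissues in the values of Tnnc1 and Tnnt3 was not tested.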

How the data were processed

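Labels were used to assign 33 arrays to groups, and replicate numbers are those of the labels. The authors exported bead intensity per probe from GenomeStudio (version not given in the sources used here), without normalization, and deposited it beside detection p-values against negative controls. A deposited table of intensity after the authors' background subtraction and quantile normalization was used as an alternative. The study's methods name the Rat Ref-12 BeadChip, while the label protocol names a mouse chip. For rhBMP-2/ACS and vehicle/ACS arrays the paper names ganglia ipsilateral to the sponge. The same, operated side is assumed for no sponge arrays, as is 1 rat per array for those at 7 dps, which the paper does not describe.

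Intensities were corrected and quantile normalized with limma's neqc (limma 3.58.1, R 4.3.3), with an offset of 16 and with negative controls that limma infers from detection p-values, and taken to log2. Probes were kept with a detection p-value under 0.05 on 75% or more of the arrays in 1 or more of the groups. Of 22523 probes 13793 carried 1 gene symbol, from platform annotation, and 8730 none. Models with 9 group means were fitted with lmFit and eBayes with a trend, with Benjamini-Hochberg adjusted p-values in each comparison and a threshold of 0.05. The fits were tested on simulated data. Intervals are 95%. The number of arrays limits the precision, and p-values measure the spread between these arrays. All 10 genes are reported, genes of other lists follow lowest p, and Des, Csrp3 and Ankrd1 were detailed after their values were seen. The genes, lists and comparisons were chosen with earlier results of these data known.

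Alternatives were the authors' values, other corrections, offsets and filters, fits of the compared groups alone, array weights and the replicate number as a block. Further ones were a t-test with unequal variances, the study's fold and p thresholds applied to the limma fit, and leaving out arrays. Leaving out the 2 high arrays together was chosen after seeing the data. No chip block could be fitted, since no chip is given in the sources used here. Figures were drawn with matplotlib 3.10.9.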

Additional observations from a re-analysis of the deposited data

Results flagged for a closer look

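In groups of 4 arrays, a value was set apart when its gap to the nearest other array took more of the group's range than Dixon's 95% limit allows, which chance alone does in about 1 of 20 groups. Of 60 such tests over the 10 genes 10 were set apart, 8 of them on 2 arrays. On replicate 3 of rhBMP-2/ACS at 1 dps the gap was 0.91 of the range for Acta1, 0.897 for Ckm, 0.9 for Tnnc2 and 0.904 for Tnni2. On replicate 3 of rhBMP-2/ACS at 7 dps it was 0.92 for Acta1, 0.898 for Tnnc2, 0.915 for Tnnt3 and 0.834 for Tnni2. Tnni2 was detected on none of the other arrays in either group. The remaining flags were Tnnc2 on replicate 4 of no sponge at 1 dps, high with 0.852 (6.11, against 5.43 to 5.53), and Tnnc1 on replicate 4 of vehicle/ACS at 1 dps, low with 0.952 (6.85, against 6.95 on each of the others).

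The fitted effect of rhBMP-2/ACS versus vehicle/ACS on Myh7 differed between 7 dps and 3 dps by 0.73 (limma adjusted p = 0.0462), and over 19 alternatives its adjusted p ranged from 0.0202 to 0.171. Myh7 passed the detection filter only through rhBMP-2/ACS at 7 dps and was detected on 0 of 3 rhBMP-2/ACS arrays at 3 dps, so that the value is no measured fold and is not read as a change.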

How the results depend on the processing

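Of 396 recomputed counts of genes called, over 19 comparisons, 344 stayed within 1.5 times the main count and 52 moved. For the effect of rhBMP-2/ACS versus vehicle/ACS at 7 dps minus 3 dps, 1 gene (Myh7) became 0 with the authors' values, equalized medians, no detection filter, detection in every array of a group, the compared groups alone, array weights or the 2 high arrays left out, and 2 at the study's thresholds. With the compared groups alone, rhBMP-2/ACS versus no sponge at 7 dps gave 0 and vehicle/ACS versus no sponge 2, rhBMP-2/ACS at 3 against 1 dps gave 0, no sponge at 3 against 1 dps 1 and at 7 against 3 dps 2. Equalized medians gave 0 for rhBMP-2/ACS at 3 against 1 dps, the authors' values 1 for no sponge at 3 against 1 dps, and no background subtraction 1 for rhBMP-2/ACS versus vehicle/ACS at 3 dps (Myh7). A t-test with unequal variances gave 0 after Benjamini-Hochberg adjustment in every comparison of 1 group with another. Its adjusted p was 0.139 for Tnnc1 in vehicle/ACS versus no sponge at 7 dps. At the study's thresholds vehicle/ACS versus no sponge at 7 dps gave 0, its effect at 7 dps minus 3 dps 1, the rhBMP-2/ACS effect at 3 dps minus 1 dps 1, rhBMP-2/ACS at 3 against 1 dps 3, vehicle/ACS at 7 against 3 dps 1 and no sponge 2. Without the 2 high arrays rhBMP-2/ACS versus no sponge at 7 dps gave 0 and rhBMP-2/ACS at 7 against 3 dps 1. The causes were not tested, apart from Myh7 failing a filter.

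Leaving out 1 array gave 0 to 1 genes for the effect at 7 dps minus 3 dps and for rhBMP-2/ACS versus no sponge at 7 dps, 0 to 2 for rhBMP-2/ACS at 3 against 1 dps, 1 to 3 for rhBMP-2/ACS at 7 against 3 dps, and 1 to 2 for vehicle/ACS and for no sponge at 7 against 3 dps. In rhBMP-2/ACS versus vehicle/ACS, the difference of Myl1 at 1 dps was -0.020 with the authors' values and -0.10 with array weights, against 0.04. Without replicate 3 of rhBMP-2/ACS, alone or with its counterpart, signs turned for Myl1 (-0.37), Ckm (-0.10) and Tnnt3 (-0.019) at 1 dps and for Ckm (-0.016) and Tnnt3 (-0.060) at 7 dps. Leaving out 1 array, these ranged from -0.37 to 0.29, -0.10 to 0.86, -0.019 to 0.29, -0.016 to 0.55 and -0.060 to 0.46. Same-numbered arrays correlated between -0.18 and 0.24 after subtraction of group means, with no pairing seen across all times. At 3 dps their mean was 0.10 for rhBMP-2/ACS with vehicle/ACS, 0.14 for rhBMP-2/ACS with no sponge and 0.05 for vehicle/ACS with no sponge. Other pairs had -0.05, -0.07 and -0.02, so that a weak pairing at 3 dps stays possible. The replicate block changed no count, with 1 for vehicle/ACS versus no sponge and 3 for rhBMP-2/ACS at 7 against 3 dps. Signal near background limits Myh7, Tnni2, Mb and Tnnt3.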
